A study of Homo sapiens with 30 samples.

Results

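The subject of this report is the mitochondrial respiratory chain: 92 protein-coding genes, of which 13 are encoded in the mitochondrial genome and 79 in the nucleus, followed in neuroblastoma cells after transfection of antisense oligonucleotides (ASOs) that target NESPR, a long non-coding RNA. Members were chosen by symbol (MT-ND, MT-CO, MT-ATP and MT-CYB genes, numbered NDUFA, NDUFB, NDUFC, NDUFS and NDUFV genes with 1 exception, SDHA to SDHD, UQCR genes, CYC1, COX4 to COX8 and ATP5F, ATP5M and ATP5P genes). The choice was made with earlier results of these data known. A member had to be listed in all 3 tables with a mean normalized count of at least 10 in each. Of 281 matching symbols 101 were protein-coding, and 92 of these passed, out of 52007 gene identifiers shared by the tables. The study transfected IMR32, NGP and SK-N-BE(2)c, established human neuroblastoma lines, with 100 nM ASO by lipofection and sequenced their RNA. IMR32 had 4 libraries each of ASO1, ASO2 and the negative control ASO (NCA), and NGP and SK-N-BE(2)c had 3 libraries each of ASO2, ASO10 and NCA, 30 libraries in all. The time from transfection to harvest and any untransfected cells were not part of the data used here, so every difference is between an oligonucleotide against NESPR and a control oligonucleotide. The column names spell NCA replicate 1 differently from replicates 2 and 3 in NGP and SK-N-BE(2)c, and the labels do not settle whether that marks another oligonucleotide. The level of NESPR was not analysed here, so the knockdown was not checked.

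The respiratory chain passes electrons from NADH (complex I) and succinate (complex II) through ubiquinone, complex III and cytochrome c to oxygen at complex IV, and the proton gradient built on the way drives ATP synthase (complex V). Its subunits come from both genomes: the mitochondrial genome encodes hydrophobic core subunits of complexes I, III, IV and V, while complex II is wholly nuclear. Neuroblastoma cells, like other dividing cells, use both this chain and glycolysis for ATP. The members split into 42 of complex I (7 mitochondrial), 4 of complex II, 11 of complex III (1 mitochondrial), 16 of complex IV (3 mitochondrial) and 19 of complex V (2 mitochondrial). NDUFA4 and NDUFA4L2 were counted with complex IV, where the NDUFA4 protein is now placed. The 9 matching genes that missed the minimum were COX4I2, COX6A2, COX6B2, COX7A1, COX7B2 and COX8C, which are isoforms mostly of muscle or testis, ATP5MGL, and the read-through genes NDUFC2-KCTD14 and ATP5MF-PTCD1. COX6B2 had a mean of 105 in IMR32, 0.59 in SK-N-BE(2)c and 0.87 in NGP, and COX4I2 had 13.8, 3.21 and 0.73. The lowest members just above the minimum were UQCRHL with a mean of 14.6 and NDUFA4L2 with 15.5, both in SK-N-BE(2)c.

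IMR32 libraries held 9393587 to 13932379 reads, SK-N-BE(2)c libraries 11497829 to 15060356 and NGP libraries 11591178 to 13795561. All 9 adrenergic neuroblastoma markers reported (TH, DBH and others) had a mean of at least 10 in each line. Their summed level was lower with ASO2 than with NCA in every library of NGP (45686 to 47463 against 49779 to 52746) and IMR32 (24098 to 25389 against 26557 to 27436), and overlapped in SK-N-BE(2)c (56578 to 58988 against 57247 to 63810). With ASO10 it was below all controls, at 52314 to 53268 in SK-N-BE(2)c and 40892 to 43300 in NGP. The summed level of 8 mesenchymal markers was higher with ASO2 than with NCA in every library of each line: 13693 to 14606 against 9871 to 10029 in NGP, 3763 to 3845 against 2678 to 2843 in SK-N-BE(2)c and 4217 to 4456 against 3144 to 3602 in IMR32. With ASO10 SK-N-BE(2)c had 3505 to 3762 and NGP 11221 to 11917. Only 6 of the 8 in IMR32, 4 in NGP and 3 in the third line had a mean of at least 10, so few genes carry these sums. The part of these shifts in the results below was not tested, and in bulk RNA fewer cells of a kind and less RNA per cell cannot be told apart. The labels do not say whether replicates were separate cultures, so p-values measure the spread between these libraries. NGP and SK-N-BE(2)c values share a scaling and IMR32 was scaled on its own, so IMR32 levels printed beside those of the other lines are descriptions and were not tested against them.

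Throughout, a gene is called when its Benjamini-Hochberg adjusted p from limma, over all genes tested in that contrast, is under 0.05, and fold changes are on the log2(normalized count + 1) scale. The chain moved little as a whole, and a few single subunits moved by more than 0.5 in either direction. Such changes were rarer among members than among all genes tested. They made 12.0% of members beside 43.9% of all genes in SK-N-BE(2)c ASO2, and 6.5% beside 35.6% in NGP ASO2. In IMR32, 8 of 92 members were called with ASO1 against NCA (7 higher, 1 lower) beside 28% of all genes tested (13.6% higher, 14.4% lower), and 21 with ASO2 (18 higher, 3 lower) beside 32.4% (17.6% higher, 14.8% lower). In NGP, 36 members were called with ASO2 (25 higher, 11 lower) beside 58.7% of all genes (30.6% higher, 28.1% lower), and 25 with ASO10 (8 higher, 17 lower) beside 54.4% (26.8% higher, 27.6% lower). SK-N-BE(2)c had 59 called with ASO2 (49 higher, 10 lower) beside 67% of all genes (33.6% higher, 33.4% lower), and 30 with ASO10 (17 higher, 13 lower) beside 58.9% (27.8% higher, 31.1% lower). In this fit the share of members called was below that of all genes tested in each of the 6 contrasts with NCA, and close to it only for SK-N-BE(2)c ASO2, where members made 64.1%. With the replicate number as a block, the IMR32 counts rose to 26 members with ASO1 (28.3%, beside 38.2% of all genes) and 42 with ASO2 (45.7%, beside 42.9%), so in that fit the ASO2 share was not below that of all genes. The contrasts of a line share its NCA libraries. Some counts rest on few libraries. The IMR32 ASO1 count was 5 without ASO1 replicate 2, ASO1 replicate 3 or NCA replicate 2, and 4 without NCA replicate 3. The IMR32 ASO2 count was 10, 12 and 11 without NCA replicates 2, 3 and 4, and the NGP ASO10 count was 16 without ASO10 replicate 3.

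The median log2 fold change of the 92 members was 0.01 and 0.10 in IMR32 (ASO1, ASO2), 0.04 and -0.04 in NGP (ASO2, ASO10) and 0.18 and 0.02 in SK-N-BE(2)c (ASO2, ASO10). Over all genes tested it lay between -0.03 and 0.01. The members are abundant, so a second comparator was added after the values were seen: all genes at or above the median level of the nuclear members. These had medians of 0.15 in NGP ASO2 and 0.25 in SK-N-BE(2)c ASO2, both above the members' own 0.04 and 0.18. With ASO10 they had 0.08 in SK-N-BE(2)c and 0.04 in NGP, above the members' 0.02 and -0.04. In IMR32 they had -0.01 with ASO1 and 0.06 with ASO2, below the members' 0.01 and 0.10. Their typical change in either direction was also larger: the median absolute log2 fold change was 0.260 in NGP ASO2 and 0.366 in SK-N-BE(2)c ASO2, against 0.133 and 0.206 for the members. In the other 4 contrasts it was 0.119, 0.144, 0.187 and 0.231 for the abundant genes and 0.075, 0.119, 0.094 and 0.10 for the members (IMR32 ASO1, IMR32 ASO2, NGP ASO10, SK-N-BE(2)c ASO10). Among these abundant genes 75.3% were called in NGP ASO2 and 83.2% in SK-N-BE(2)c ASO2. The rise of the chain's median in SK-N-BE(2)c with ASO2 therefore stood above that of all genes and below that of genes as abundant as its nuclear members.

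**Figure D1:**
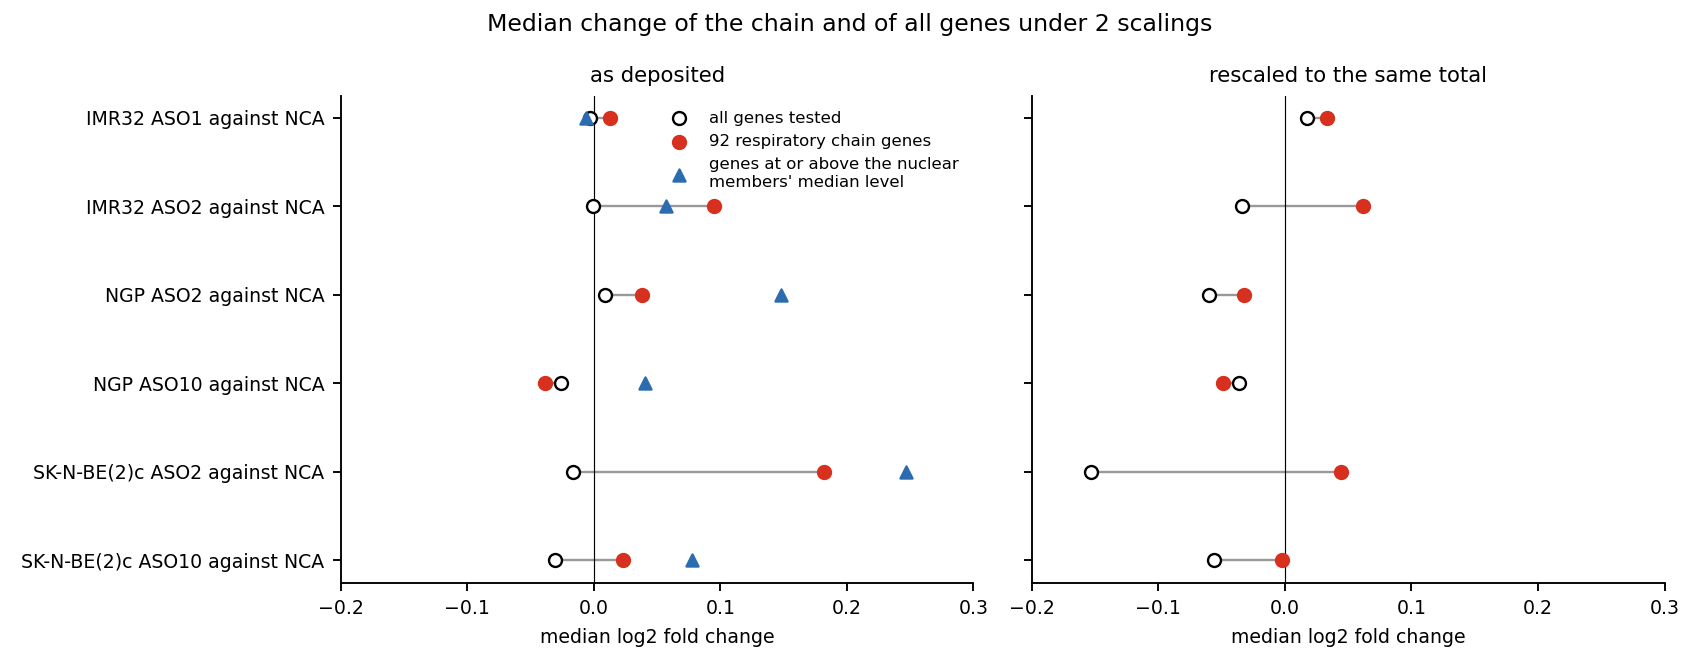
Median log2 fold change (x axis) in the 6 contrasts with NCA (y axis) for all genes tested (open circles) and the 92 members (red), as deposited (left, with genes at least as abundant as the median nuclear member as blue triangles) and after rescaling each library to the same total (right). In SK-N-BE(2)c ASO2 the members sit at 0.18 as deposited and 0.04 after rescaling, and all genes at -0.02 and -0.15.

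Directions of small changes depend on how libraries are scaled. Rescaling each library to the same total moved the median of all genes in SK-N-BE(2)c ASO2 from -0.02 to -0.15, and the members' median from 0.18 to 0.04. Under that scaling 42 members were called there (28 higher, 14 lower), beside 25.8% of all genes higher and 41.4% lower. In NGP ASO2 the split turned over, from 25 higher and 11 lower to 11 higher and 25 lower, beside 25.4% and 32.5% of all genes. In SK-N-BE(2)c ASO10 it went from 17 higher and 13 lower to 14 and 16. The calls of NDUFV3, NDUFB6, NDUFA10, NDUFA5 and NDUFV1 against NCA in NGP and SK-N-BE(2)c, described next, kept their direction and their side of the threshold under every scaling tried.

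**Figure D2:**
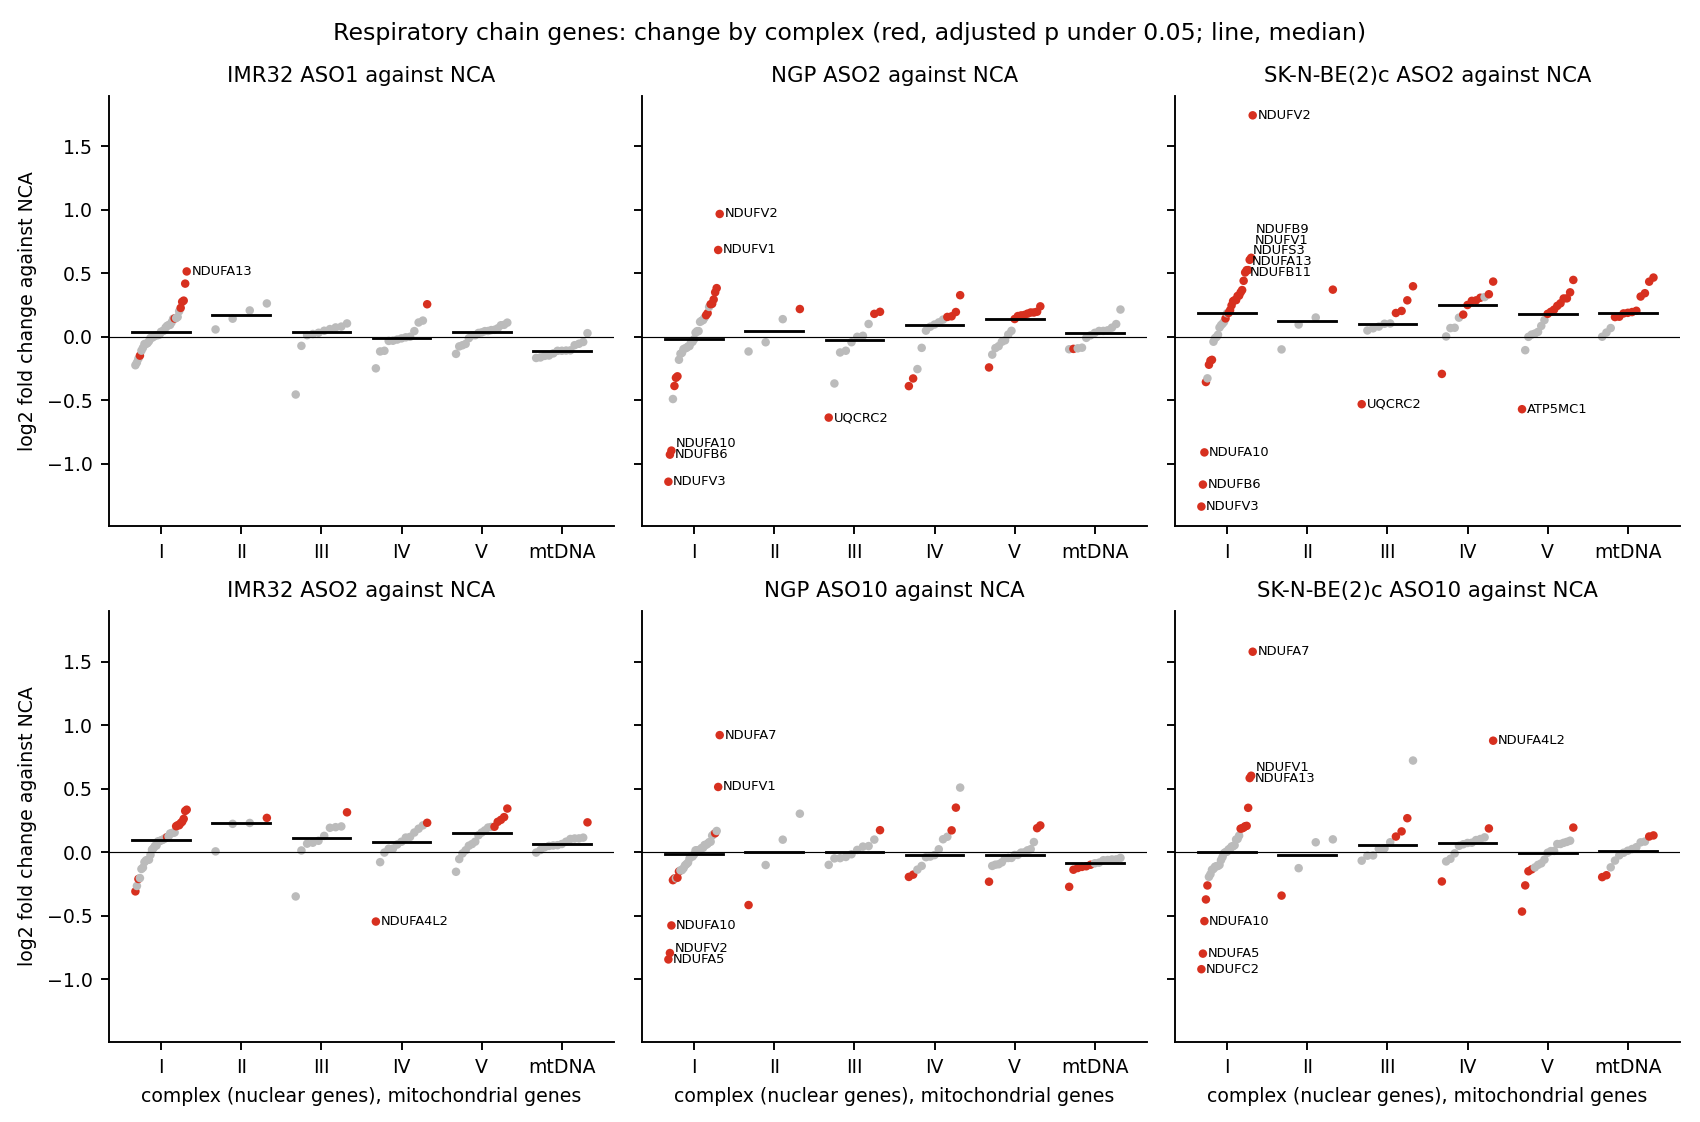
Log2 fold change against NCA (y axis) of the nuclear members of complexes I to V and the 13 mitochondrial members (x axis), 1 panel per contrast, each point 1 gene, red where the adjusted p is under 0.05, black lines the medians. Most points lie near 0. The labelled genes, all past 0.5 in either direction, are mostly of complex I, which has 35 of the 79 nuclear members. NDUFV3 is lowest at -1.34 and NDUFV2 highest at 1.74, both in SK-N-BE(2)c ASO2.

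Complex I, which has 35 of the 79 nuclear members, held the largest falls, and they differed between the ASOs. NDUFV3, a supernumerary subunit of the NADH-binding module, had normalized counts of 529, 553 and 563 in the NGP control libraries and 260, 261 and 225 with ASO2. SK-N-BE(2)c had 947, 1032 and 965 with NCA and 372, 432 and 361 with ASO2. No treated library reached the control range in either line, and the log2 fold change was -1.14 (SE 0.09, adjusted p = 4.4e-11) in NGP and -1.34 (SE 0.08, adjusted p = 1.1e-14) in SK-N-BE(2)c. With ASO10 the same gene had 490, 475 and 528 in NGP and 870, 939 and 922 in SK-N-BE(2)c, just under the controls in both lines. Those log2 fold changes of -0.14 (adjusted p = 0.17) and -0.11 (adjusted p = 0.23) did not pass. The direct contrast of ASO2 with ASO10 gave -1.23 (SE 0.08, adjusted p = 5.3e-14) in SK-N-BE(2)c and -1.0 (SE 0.09, adjusted p = 3.6e-10) in NGP. In IMR32 NDUFV3 had 910, 849, 955 and 876 with NCA and 789, 687, 723 and 699 with ASO2, -0.31 (SE 0.06, adjusted p = 4.5e-04), and ASO1 gave -0.09 (adjusted p = 0.29).

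NDUFB6, a membrane-arm subunit, fell in the same ASO2 groups. It had 676, 628 and 743 with NCA, 357, 337 and 378 with ASO2 and 729, 707 and 703 with ASO10 in NGP. Levels in SK-N-BE(2)c were 481, 469 and 530 with NCA, 189, 272 and 205 with ASO2 and 387, 379 and 375 with ASO10. ASO2 libraries lay below all others in both lines, with -0.93 (SE 0.08, adjusted p = 3.6e-10) in NGP and -1.16 (SE 0.11, adjusted p = 1.4e-10) in SK-N-BE(2)c. ASO10 gave 0.07 (adjusted p = 0.5) in NGP and -0.37 (adjusted p = 0.0036) in SK-N-BE(2)c. In IMR32, where levels were 244, 211, 179 and 174 with NCA, the changes of 0.20 (adjusted p = 0.22) with ASO1 and -0.27 (adjusted p = 0.087) with ASO2 did not pass.

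NDUFA10, a subunit of the membrane arm related to nucleoside kinases, was lower with each of the ASOs. NGP control libraries had 1501, 1310 and 1456, ASO2 libraries 736, 806 and 746 and ASO10 libraries 876, 914 and 1076. SK-N-BE(2)c had 1668, 1681 and 1782 with NCA, 887, 954 and 887 with ASO2 and 1202, 1146 and 1173 with ASO10. The 3 groups did not overlap in either line and lay in the order NCA, ASO10, ASO2. Log2 fold changes were -0.90 (SE 0.08, adjusted p = 3.2e-10) for NGP ASO2 and -0.58 (SE 0.08, adjusted p = 5.7e-07) for NGP ASO10. For SK-N-BE(2)c they were -0.91 (SE 0.06, adjusted p = 2.9e-13) for ASO2 and -0.54 (SE 0.06, adjusted p = 1.5e-08) for ASO10. ASO2 lay below ASO10, with a difference of -0.32 (adjusted p = 8.3e-04) in NGP and -0.37 (adjusted p = 6.3e-06) in the other line. The IMR32 changes were smaller, -0.15 (adjusted p = 0.032) with ASO1 and -0.21 (adjusted p = 0.0033) with ASO2. The ASO1 call was lost after rescaling to the same total (adjusted p = 0.053), with TMM factors (0.059), and without ASO1 replicate 1, 2 or 3 or NCA replicate 1 or 4 (0.068 to 0.10). NDUFA10 was the only member called lower in all 6 contrasts with NCA, which share controls within a line. Of the 11594 genes tested in all 3 lines 2.92% were called lower in all 6 and 3.05% higher, and no member was called higher in all 6.

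**Figure D3:**
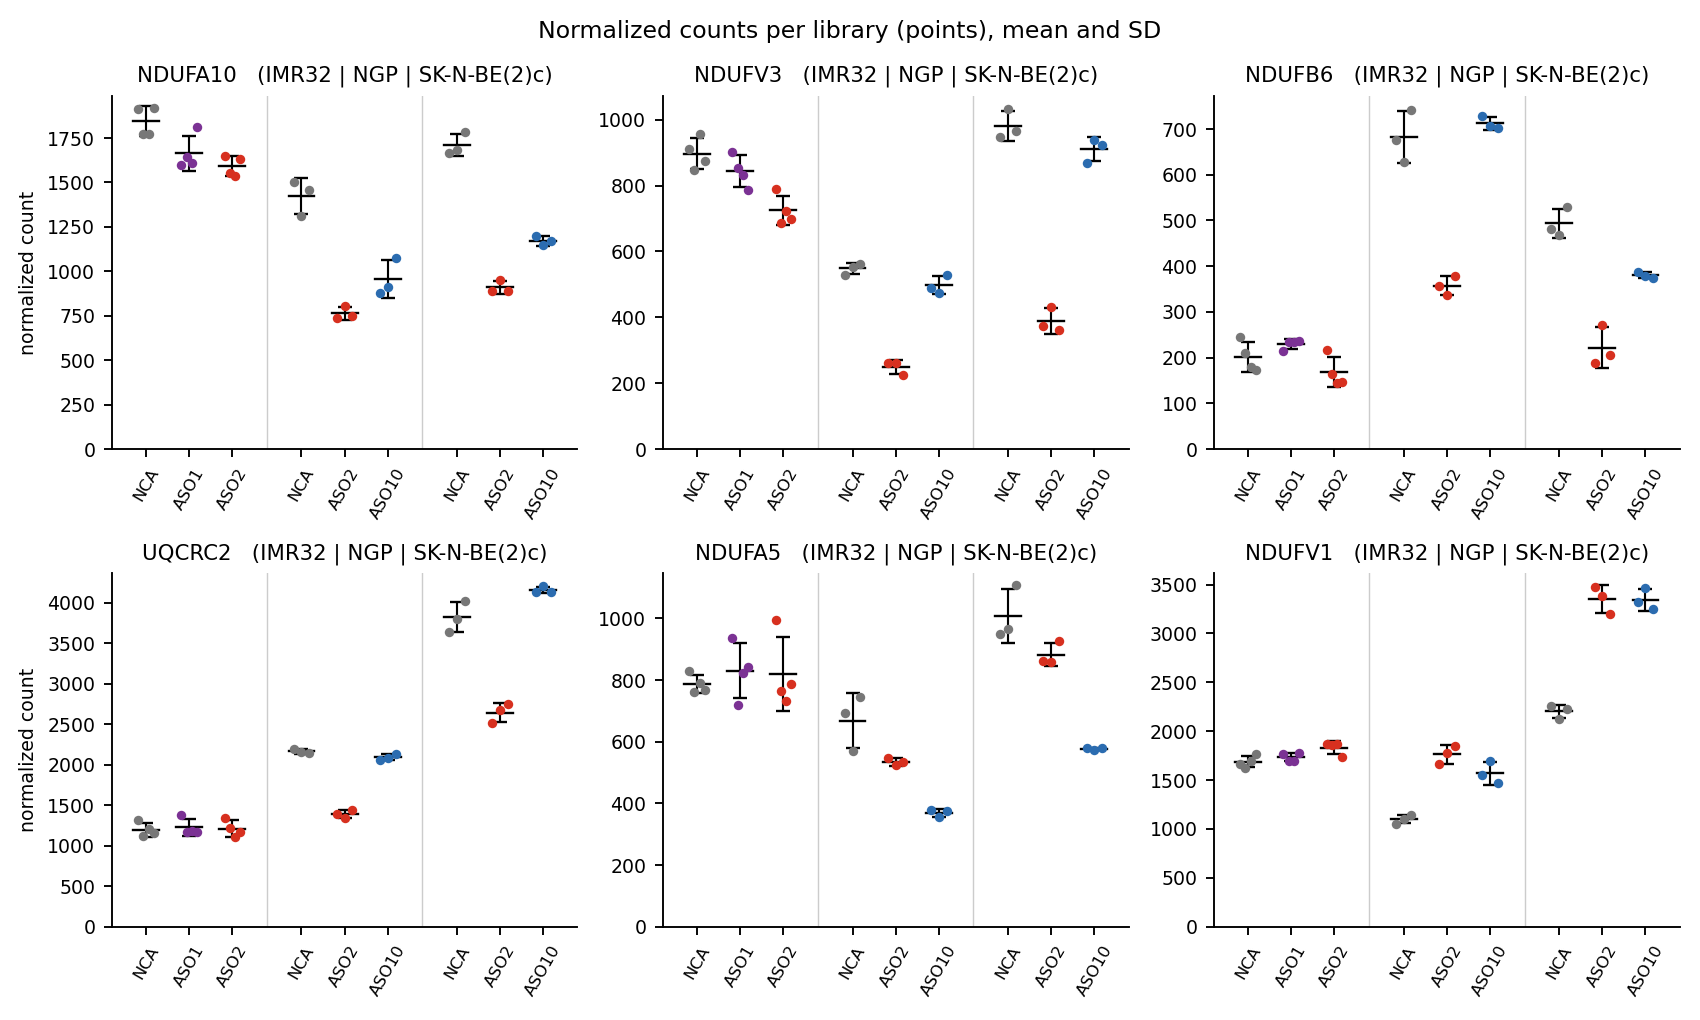
Normalized counts (y axis) in each library (points) with mean and SD for 6 members, by line and ASO (x axis). NDUFV3, NDUFB6 and UQCRC2 fall with ASO2 in NGP and SK-N-BE(2)c, NDUFA5 falls most with ASO10, NDUFA10 falls with both and NDUFV1 rises with both.

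NDUFA5, a subunit of the peripheral arm, had the opposite preference. It had 692, 570 and 745 with NCA, 549, 524 and 533 with ASO2 and 380, 355 and 375 with ASO10 in NGP, and 951, 965 and 1108 with NCA, 862, 860 and 926 with ASO2 and 578, 575 and 580 with ASO10 in SK-N-BE(2)c. ASO10 libraries were the lowest in both lines, at -0.84 (SE 0.09, adjusted p = 1.3e-08) and -0.80 (SE 0.07, adjusted p = 1.7e-10) against NCA. ASO2 gave -0.31 (adjusted p = 0.0038) and -0.19 (adjusted p = 0.021), the second lost without ASO2 replicate 1 or 2 or NCA replicate 3 (0.064 to 0.16). The difference between the ASOs was 0.53 (adjusted p = 1.2e-05) in NGP and 0.61 (adjusted p = 1.8e-08) in SK-N-BE(2)c. NDUFC2, another membrane-arm subunit, had 484, 477 and 476 in SK-N-BE(2)c controls and 343, 193 and 243 with ASO10, -0.92 (SE 0.14, adjusted p = 3.2e-06). In NGP the ASO10 libraries (512, 378 and 514) overlapped the controls (570, 402 and 565). The ASO10 effect differed between the lines by -0.79 (SE 0.22, adjusted p = 0.012), a call lost without NGP NCA replicate 2 (adjusted p = 0.054) or SK-N-BE(2)c ASO10 replicate 2 (0.059). NDUFC2 shares 16.3% of its exon length on the same strand with the read-through gene NDUFC2-KCTD14.

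Other complex I subunits rose. NDUFV1, which carries the FMN that accepts electrons from NADH, had 1055, 1101 and 1139 in NGP controls, 1664, 1778 and 1852 with ASO2 and 1548, 1698 and 1465 with ASO10. SK-N-BE(2)c had 2259, 2125 and 2224 with NCA, 3475, 3382 and 3201 with ASO2 and 3319, 3464 and 3249 with ASO10. All treated libraries of both lines were above their controls. The changes were 0.68 (SE 0.06, adjusted p = 2.1e-09) and 0.51 (SE 0.06, adjusted p = 2.7e-07) in NGP, and 0.61 (SE 0.05, adjusted p = 7.3e-11) and 0.60 (SE 0.05, adjusted p = 1.5e-10) in SK-N-BE(2)c. Between the ASOs SK-N-BE(2)c differed by 0.00 with a 95% interval of -0.11 to 0.11. In IMR32 the values were 0.04 (adjusted p = 0.56) with ASO1 and 0.12 (adjusted p = 0.049) with ASO2, and the latter call was lost without ASO2 replicate 1, 2 or 3 or NCA replicate 1, 2 or 3 (0.082 to 0.15). NDUFS1, the large iron-sulphur subunit of the same module, moved by less: -0.10 (adjusted p = 0.15) and 0.15 (adjusted p = 0.03) in NGP, -0.18 (adjusted p = 0.0033) and 0.00 (adjusted p = 0.99) in SK-N-BE(2)c. Its NGP ASO10 call was lost without ASO10 replicate 1 or 3 or NCA replicate 2 (0.07 to 0.15). Within the NADH-binding module NDUFV1 was higher, NDUFV3 lower and NDUFS1 within 0.2 of its controls on the log2 scale in the same ASO2 libraries.

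NDUFB9, a membrane-arm subunit, had 2721, 3069 and 3231 in SK-N-BE(2)c controls and 4268, 4457 and 5165 with ASO2, 0.62 (SE 0.07, adjusted p = 4.2e-09), beside 0.35 (adjusted p = 1.2e-05) in NGP. NDUFC1 rose with ASO2 in NGP by 0.38 (adjusted p = 9.0e-04), and in IMR32 by 0.42 (adjusted p = 0.0013) with ASO1 and 0.32 (adjusted p = 0.0081) with ASO2. It shares 18.5% of its exon length with MGARP on the same strand. NDUFA13, also known as GRIM-19, rose in SK-N-BE(2)c with ASO2 (from 271, 261 and 288 to 422, 393 and 367) and ASO10 (416, 438 and 379), by 0.52 (adjusted p = 1.2e-05) and 0.58 (adjusted p = 3.5e-06). NGP showed -0.09 (adjusted p = 0.48) and 0.01 (adjusted p = 0.92), and the difference between the lines was 0.62 (adjusted p = 0.0033) for ASO2 and 0.57 (adjusted p = 0.0064) for ASO10. Its IMR32 call with ASO1, 0.51 (adjusted p = 0.03), came from normalized counts of 27.1 to 50.1, and was lost with DESeq2 (0.062) and without ASO1 replicate 2, 3 or 4 or NCA replicate 2 or 3 (0.057 to 0.098). NDUFA13 shares 21.0% of its exon length with YJEFN3 and a read-through gene. Other IMR32 calls were also thin. NDUFB4 (0.28, adjusted p = 0.029 with ASO1) was lost without ASO1 replicate 1 or 2 or NCA replicate 2, 3 or 4 (0.062 to 0.11). NDUFA2 (0.33, adjusted p = 0.017 with ASO2) was lost without ASO2 replicate 1 or NCA replicate 2 (0.056 and 0.083).

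The 2 highest rises were in low-count genes whose reads may be shared. NDUFV2, the partner of NDUFV1, had 69.2, 79.8 and 47.2 in NGP controls, 117, 126 and 135 with ASO2 and 37.7, 29.5 and 43.4 with ASO10. SK-N-BE(2)c had 17.8, 31.3 and 34.7 with NCA, 87.3, 84.3 and 107 with ASO2 and 25.1, 25.6 and 22.4 with ASO10. ASO2 libraries stood above all others in both lines, by 0.97 (SE 0.20, adjusted p = 1.7e-04) and 1.74 (SE 0.24, adjusted p = 3.8e-07) against NCA, while ASO10 gave -0.79 (adjusted p = 0.0014) and -0.14 (adjusted p = 0.64). Its pseudogene copy was counted at 29.8% of its level in SK-N-BE(2)c and 25.9% in NGP, and 28.4% of its exon length is shared with another annotated gene, so the size is uncertain. NDUFA7 went the other way: 18.8, 19.2 and 11.6 with NCA, 12.2, 17.2 and 9.6 with ASO2 and 48.4, 53.2 and 49.0 with ASO10 in SK-N-BE(2)c, 1.58 (SE 0.30, adjusted p = 6.5e-05) for ASO10. In NGP ASO10 the value was 0.92 (adjusted p = 0.028), lost without ASO10 replicate 2 or 3 or NCA replicate 1 or 3 (0.063 to 0.13). NDUFA7 shares 32.3% of its exon length with another gene, and ASO2 lay below ASO10, by a log2 difference of -1.41 (adjusted p = 0.0011) in NGP and -1.91 (adjusted p = 3.5e-06) in the other line.

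Promoter sequences of members that moved together are shown because the steepest ASO2 falls shared a short string of letters. The sequences are the 250 bases before the annotated start, 5′ to 3′ on the gene's strand, from RefSeq on GRCh38.p14, with every TGACGT (either strand, a string found in cyclic AMP response elements) in capitals. NDUFV3 lies at chr21:42893059-42893308 on the plus strand, NDUFB6 at chr9:32573160-32573409 and NDUFA10 at chr2:240025343-240025592, both on the minus strand, and NDUFV1, which rose, at chr11:67606686-67606935 on the plus strand.
NDUFV3: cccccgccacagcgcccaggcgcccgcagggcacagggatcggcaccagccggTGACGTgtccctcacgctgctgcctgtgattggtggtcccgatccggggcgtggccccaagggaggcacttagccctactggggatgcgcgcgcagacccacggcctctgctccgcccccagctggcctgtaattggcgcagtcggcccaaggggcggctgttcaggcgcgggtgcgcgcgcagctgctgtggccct
NDUFB6: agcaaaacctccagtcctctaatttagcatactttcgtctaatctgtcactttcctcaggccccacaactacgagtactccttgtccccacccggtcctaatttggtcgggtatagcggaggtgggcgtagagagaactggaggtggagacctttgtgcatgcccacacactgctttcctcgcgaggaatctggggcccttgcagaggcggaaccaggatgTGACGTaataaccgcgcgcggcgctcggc
NDUFA10: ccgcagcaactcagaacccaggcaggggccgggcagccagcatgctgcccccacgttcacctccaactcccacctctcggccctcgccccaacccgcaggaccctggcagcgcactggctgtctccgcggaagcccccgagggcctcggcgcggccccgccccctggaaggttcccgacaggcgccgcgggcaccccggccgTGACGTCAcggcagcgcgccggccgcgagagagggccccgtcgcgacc
NDUFV1: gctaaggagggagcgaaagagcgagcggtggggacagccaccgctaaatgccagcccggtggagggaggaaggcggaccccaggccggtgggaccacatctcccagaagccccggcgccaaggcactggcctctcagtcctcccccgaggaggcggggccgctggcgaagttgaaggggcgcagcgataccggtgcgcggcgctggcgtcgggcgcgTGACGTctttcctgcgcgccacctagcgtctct

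The match farthest from the start began 197, 29, 48 and 33 bases before it in these 4 genes. In UQCRC2 it began 181 bases before the start, and in ATP5MC1 57. NDUFA10 and ATP5MC1 each had 2 overlapping matches, the others 1. Of the 79 nuclear members 63 had a promoter in the RefSeq table, scanned over 250 bases before and 50 after the start. TGACGT was found in 20.6% of these 63, against 8.32% of all 27305 promoters of that length, which include genes not tested here. In the SK-N-BE(2)c ASO2 contrast the shares over the genes tested, given below, were above 8.32%. All 5 matched members called with ASO2 at a log2 fold change of -0.5 or lower in SK-N-BE(2)c held it, as did all 4 in NGP. Those 4 (NDUFV3, NDUFB6, NDUFA10 and UQCRC2) are among the 5, which add ATP5MC1. The NGP count therefore repeats the same promoters and is no second observation. Of the other matched members, which were not both called and past 0.5, 13.2% held it in SK-N-BE(2)c and 14.0% in NGP. It was also in 1 of the 5 called at 0.5 or higher in SK-N-BE(2)c, NDUFV1, and in 1 of the 2 in NGP. With ASO10 it was in 1 of the 3 members that fell that far in NGP and in 1 of the 2 in SK-N-BE(2)c. Of those that rose that far with ASO10, 2 of 2 in NGP and 2 of 3 in SK-N-BE(2)c held it, so members that rose held the string as well as members that fell. With ASO2 in SK-N-BE(2)c, over all genes tested, 11% of the genes falling that far and 13.4% of those rising that far held it. Of the genes that were not both called and past 0.5, 12.2% did. The motif was picked after the values were seen, and a match is a description of these letters, not a binding site. The 3 other strings searched were more common in the members too, on either strand: CCGGAAG (ETS) in 31.7% against 10.7%, AAGATGGC (YY1) in 15.9% against 3.03%, and the NRF1 motif (GCGCA, any base, then GCGC) in 25.4% against 6.28%. These 3 were compared only with all 27305 promoters, not with the genes tested. None of the 4 strings contains another.

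Complex II, succinate dehydrogenase, showed 1 call at most in each contrast with NCA. SDHC, a membrane anchor named here after its values were seen, had 337, 357 and 339 in NGP controls and 247, 280 and 249 with ASO10, -0.42 (SE 0.09, adjusted p = 4.4e-04), and 487, 520 and 553 with NCA and 404, 411 and 414 with ASO10 in SK-N-BE(2)c, -0.34 (SE 0.09, adjusted p = 0.0017). ASO10 libraries were below their controls in both lines, and ASO2 gave -0.12 (adjusted p = 0.29) and -0.10 (adjusted p = 0.33). Between the ASOs, ASO2 was higher for SDHC by 0.24 (adjusted p = 0.019) in SK-N-BE(2)c and 0.30 (adjusted p = 0.0067) in NGP, and for SDHB by 0.29 (adjusted p = 1.2e-04) and 0.24 (adjusted p = 0.0018). The SK-N-BE(2)c call of SDHC was lost with the same total (0.21) and without ASO2 replicate 2 or 3 (0.11 and 0.10). SDHB, the iron-sulphur subunit, was higher with ASO2 in SK-N-BE(2)c by 0.37 (adjusted p = 4.5e-06) and in IMR32 by 0.27 (adjusted p = 0.033), the latter lost without ASO2 replicate 1 or 2 or any of NCA replicates 2 to 4 (0.057 to 0.11). SDHA, the flavoprotein, was higher with ASO2 in NGP, 0.22 (adjusted p = 0.005). Annotated SDHA copies were counted at 202% of its own level in IMR32, 39.6% in SK-N-BE(2)c and 57.0% in NGP, so its values are uncertain.

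In complex III the changes of the core subunits differed in sign. UQCRC2, a matrix-facing core protein named here after its values were seen, had 2192, 2151 and 2146 in NGP controls, 1390, 1345 and 1438 with ASO2 and 2058, 2081 and 2133 with ASO10, and in SK-N-BE(2)c 3643, 3799 and 4015 with NCA, 2510, 2670 and 2744 with ASO2 and 4137, 4205 and 4125 with ASO10. It fell with ASO2, with log2 fold changes of -0.64 (SE 0.05, adjusted p = 3.1e-10) and -0.53 (SE 0.05, adjusted p = 8.3e-10), and ASO10 gave -0.05 (adjusted p = 0.46) and 0.12 (adjusted p = 0.047), the second lost with the same total (0.11), without any 1 of the ASO10 replicates and without NCA replicate 1 or 2 (0.075 to 0.18). UQCRC1, its partner, was at -0.12 (adjusted p = 0.099) and 0.10 (adjusted p = 0.11) with ASO2. UQCRFS1, the Rieske iron-sulphur protein, was higher in SK-N-BE(2)c with ASO2, 0.40 (adjusted p = 1.5e-05). CYC1, cytochrome c1, was higher in SK-N-BE(2)c with ASO2 (0.20, adjusted p = 0.0042, against an adjusted p of 0.35 with the same total) and ASO10 (0.27, adjusted p = 3.9e-04), and in IMR32 with ASO2 (0.31, adjusted p = 0.0012). Of the 10 nuclear members 4 were higher and 1 lower in SK-N-BE(2)c ASO2, and 2 higher and 1 lower in NGP ASO2. Rescaled, these were 2 and 1, and 0 and 3. Over all genes 33.6% were higher and 33.4% lower in SK-N-BE(2)c ASO2, and 30.6% and 28.1% in NGP ASO2.

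In complex IV, cytochrome c oxidase, the nuclear subunits had the highest median of the 5 complexes in SK-N-BE(2)c with ASO2, 0.25, beside 0.18 for complexes I and V, 0.12 for II and 0.10 for III. Rescaled to the same total it was 0.11. Complex IV led in SK-N-BE(2)c ASO10 too, but in no contrast of NGP or IMR32 with NCA. Its median was 0.10 in NGP ASO2, beside 0.14 for complex V, and 0.08 in IMR32 ASO2, beside 0.15. No test was made between complexes. COX4I1 was at 0.25 (adjusted p = 5.7e-05) and COX5A at 0.28 (adjusted p = 5.5e-05) there, and at 0.10 (adjusted p = 0.11) and 0.16 (adjusted p = 0.015) in NGP, where the COX5A call was lost with the same total (0.16) and without ASO2 replicate 3 or NCA replicate 1 (0.096 and 0.061). NDUFA4 had 2223, 2208 and 2254 in NGP controls, 2941, 2708 and 2743 with ASO2 and 2818, 2723 and 2992 with ASO10. The same groups of SK-N-BE(2)c had 3129, 3309 and 3529 with NCA, 4505, 4489 and 4457 with ASO2 and 3514, 3552 and 3731 with ASO10. It rose by 0.33 (adjusted p = 1.1e-05), 0.35 (adjusted p = 5.1e-06) and 0.43 (adjusted p = 3.2e-08), and was at 0.12 (adjusted p = 0.058) in SK-N-BE(2)c with ASO10. COX7A2L, which links complexes III and IV into supercomplexes, went down in both lines with both ASOs: -0.33 (adjusted p = 2.6e-05) and -0.19 (adjusted p = 0.006) in NGP, -0.29 (adjusted p = 1.3e-04) and -0.23 (adjusted p = 0.0021) in SK-N-BE(2)c. Its isoform COX7A2 was at 0.11 (adjusted p = 0.087) and 0.29 (adjusted p = 1.1e-04) with ASO2. COX8A fell with ASO2 in NGP, from 2446, 2620 and 2248 to 1764, 1915 and 1899, a log2 fold change of -0.39 (adjusted p = 4.1e-06), while SK-N-BE(2)c gave 0.07 (adjusted p = 0.35). The difference between the lines was 0.46 (adjusted p = 5.3e-04) for ASO2 and 0.32 (adjusted p = 0.01) for ASO10. COX8A shares 34.5% of its exon length on the same strand with another annotated gene, so these sizes are uncertain. COX6A1 was at 0.31 (adjusted p = 2.6e-04) and COX6B1 at 0.07 (adjusted p = 0.25) in SK-N-BE(2)c with ASO2.

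NDUFA4L2, the hypoxia-linked isoform of NDUFA4, made a median of 6.62% of the summed NDUFA4 and NDUFA4L2 counts in IMR32, 0.425% in SK-N-BE(2)c and 0.857% in NGP. In IMR32 it went from 37.8, 44.4, 52.7 and 49.6 with NCA to 24.6, 35.8, 34.1 and 30.9 with ASO2, -0.55 (adjusted p = 0.019), a call lost without ASO2 replicate 1 or NCA replicate 3 or 4 (0.056 to 0.067). In SK-N-BE(2)c ASO10 it was at 0.88 (adjusted p = 0.046) from 8.37, 14.1 and 10.6 to 25.1, 20.5 and 17.2. That call was lost after rescaling to the same total (0.051), with DESeq2 (0.064) and without any 1 of the ASO10 replicates or NCA replicate 1 or 3 (0.053 to 0.15).

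In complex V, ATP synthase, most calls with ASO2 were upward as deposited, apart from a rotor subunit. Of its 17 nuclear members 9 were higher and 1 lower in NGP ASO2, and 9 higher and 1 lower in SK-N-BE(2)c ASO2, where all genes had 30.6% higher and 28.1% lower, and 33.6% and 33.4%, in that order. With the same total the split in NGP ASO2 turned to 2 higher and 4 lower, and that in SK-N-BE(2)c ASO2 was 4 and 2. The single fall in both, as deposited, was ATP5MC1, a gene for the proton-conducting c subunit. It had 2488, 2564 and 2293 with NCA and 1998, 2130 and 2078 with ASO2 in NGP, -0.24 (SE 0.06, adjusted p = 7.1e-04), and, in SK-N-BE(2)c, 2215, 2157 and 2208 under NCA and 1503, 1479 and 1447 under ASO2, -0.57 (SE 0.06, adjusted p = 4.9e-10). The fall was larger in SK-N-BE(2)c, with a difference between the lines of -0.33 (SE 0.07, adjusted p = 0.0024). ATP5F1A, the catalytic-head alpha subunit, had 5279, 5194 and 5763 in SK-N-BE(2)c controls and 7072, 7359 and 7695 with ASO2, 0.45 (SE 0.05, adjusted p = 1.2e-08), and 0.24 (adjusted p = 1.3e-04) and 0.19 (adjusted p = 0.0016) in NGP. ATP5F1B, the beta subunit, was at 0.35 (adjusted p = 6.3e-08) in SK-N-BE(2)c and 0.14 (adjusted p = 0.0075) in NGP with ASO2, the latter lost with the same total (0.17) and without ASO2 replicate 3 (0.066). With ASO10 complex V had 1 nuclear member higher and 4 lower in SK-N-BE(2)c, beside 27.8% and 31.1% of all genes. In NGP it had 2 higher and 1 lower, beside 26.8% and 27.6%. In IMR32 5 nuclear members of complex V were higher with ASO2, beside 17.6% of all genes. Among them were ATP5F1A (0.20, adjusted p = 0.04) and ATP5MG (0.34, adjusted p = 0.032). The ATP5F1A call was lost without ASO2 replicate 1, 2 or 4 or any of NCA replicates 2 to 4 (0.056 to 0.12). The ATP5MG call was lost after rescaling to the same total (0.053), with DESeq2 (0.056) and without ASO2 replicate 1 or 2 or NCA replicate 2 or 3 (0.072 to 0.092).

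The 13 mitochondrially encoded genes made up 3.67% ± 0.16 (SD, n = 4) of all normalized counts in IMR32 controls. The share was 3.58% ± 0.10 (SD, n = 3) in NGP and 6.98% ± 0.16 (SD, n = 3) in SK-N-BE(2)c. The 79 nuclear members made up 0.462%, 1.09% and 1.25%. Per kilobase of transcript, MT-CO3 and MT-CO2 led in NGP controls (86700 ± 3227 and 84780 ± 2852, SD, n = 3) and in SK-N-BE(2)c controls (174566 ± 6883 and 162674 ± 6315, SD, n = 3). The ranges of these 2 genes overlapped in both lines. MT-ND4 (57628 and 120545) and MT-CO1 (53470 and 98705) came next. In IMR32 the order was MT-ND4 (68993 ± 3974, SD, n = 4), MT-CO1 (50493) and MT-CO2 (48098), with MT-CO3 in 8th place at 28545. MT-ND6, the only 1 of the 13 read from the light strand, was lowest in every line, at 5531 per kilobase in IMR32, 5959 in SK-N-BE(2)c and 2313 in NGP. Library kit and line cannot be told apart in these orders, since the labels name 2 kits without saying which library had which.

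**Figure D4:**
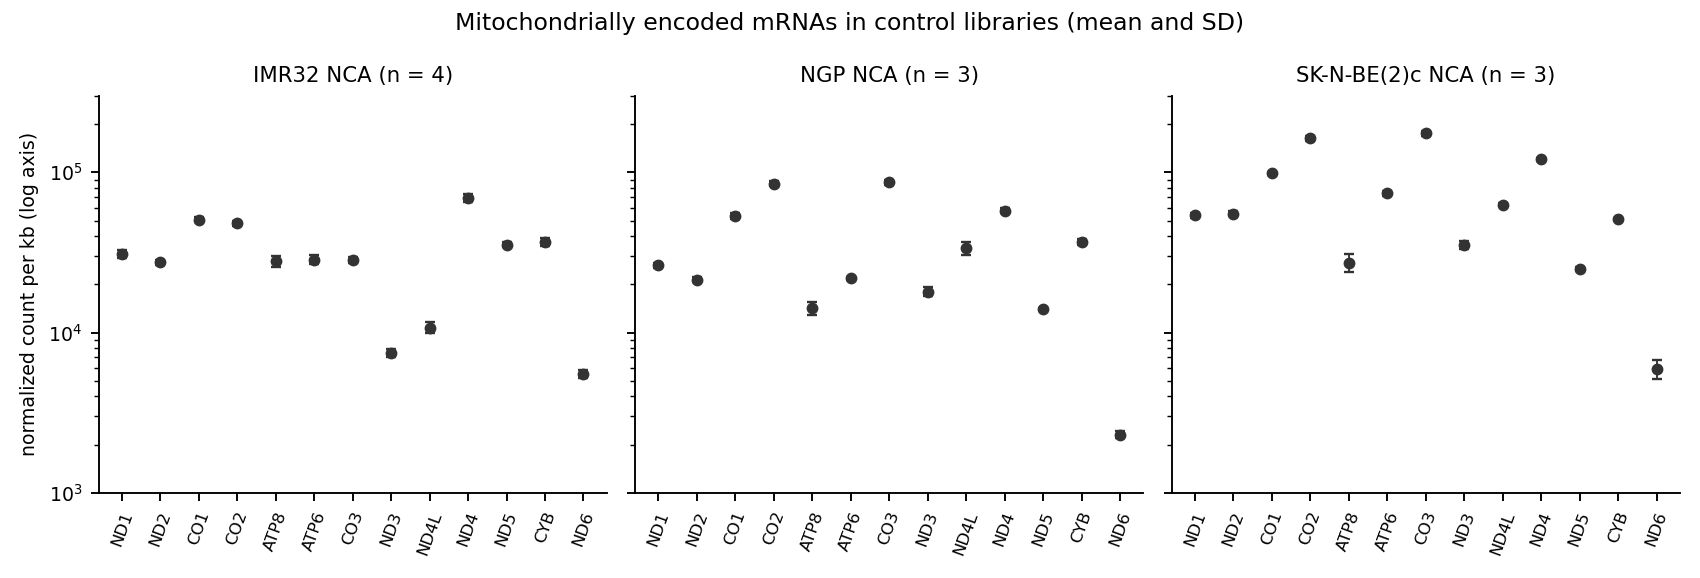
Normalized count per kilobase (log y axis, mean with SD bars) of the 13 mitochondrially encoded genes in the control libraries of each line. Genes are in genome order with MT-ND6 last (x axis). MT-ND6 is lowest in all 3 panels, and MT-CO3 is highest in NGP and SK-N-BE(2)c but 8th in IMR32.

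With ASO2 in SK-N-BE(2)c 10 of the 13 mitochondrial genes were called higher and none lower, with a median of 0.19. Of all genes 67% were called there (33.6% higher), and of the abundant genes described above 83.2%, with a median of 0.25. MT-ND6 had 2723, 3075 and 3587 with NCA and 3920, 4491 and 4494 with ASO2, 0.47 (SE 0.07, adjusted p = 1.8e-06), and all ASO2 libraries were above the controls. MT-ND2 went from 55502, 58648 and 58555 to 77387, 77575 and 78162, 0.43 (SE 0.05, adjusted p = 1.0e-08), and MT-ATP6 from 48462, 51429 and 51327 to 63013, 62583 and 66137, 0.34 (SE 0.05, adjusted p = 5.0e-07). MT-ATP8, whose reading frame overlaps MT-ATP6, was at 0.32 (adjusted p = 5.6e-04). The others called were smaller: MT-CO2 0.20, MT-CO1 0.19, MT-CO3 0.19, MT-ND3 0.18, MT-CYB 0.16 and MT-ND4 0.15. These 6 were lost after rescaling to the same total (adjusted p 0.20 to 0.77), while MT-ND6, MT-ND2, MT-ATP6 and MT-ATP8 were kept. With the same total the split of the 13 was 4 higher and 1 lower. MT-ND5 (0.07, adjusted p = 0.2), MT-ND1 (0.03, adjusted p = 0.56) and MT-ND4L (0.00) did not pass. The share of the 13 in the library was 7.25% ± 0.09 with ASO2 (7.15% to 7.33%) and 6.98% ± 0.16 with NCA (6.82% to 7.13%), SD and n = 3 each, so these ranges did not overlap. MT-ND6 made up 0.433% ± 0.036 of the mitochondrial mRNA with ASO2, 0.360% ± 0.046 with NCA and 0.323% ± 0.025 with ASO10 (SD, n = 3 each), and the ASO2 and NCA ranges overlapped.

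The other contrasts moved the mitochondrial genome less. In NGP ASO2 only MT-ND4 was called, -0.10 (adjusted p = 0.032), beside 4 lower with the same total, and the call was lost without ASO2 replicate 3 or NCA replicate 2 or 3 (0.095 to 0.14). In NGP ASO10 the 13 made up 3.25% to 3.39% of the library, below the 3.46% to 3.65% with NCA. These shares overlapped those of NCA in the other contrasts of this paragraph. In NGP ASO10 6 of the 13 were called lower, beside 27.6% of all genes tested. They were MT-ND6 -0.27 (adjusted p = 0.0016), MT-CO3 -0.14 (adjusted p = 0.0047), MT-CO2 -0.12, MT-ND5 -0.12, MT-ATP6 -0.11 and MT-ND4 -0.10. Of these, MT-CO2 was lost without ASO10 replicate 2 or NCA replicate 2 (0.077 and 0.062), MT-ATP6 without ASO10 replicate 3 or NCA replicate 3 (0.066 and 0.055), and MT-ND4 without any 1 of the ASO10 replicates or NCA replicate 2 or 3 (0.059 to 0.088). In SK-N-BE(2)c ASO10, MT-CYB (0.13, adjusted p = 0.015) and MT-ATP6 (0.12, adjusted p = 0.031) were higher, and MT-ND4L (-0.20, adjusted p = 0.0043) and MT-ND3 (-0.18, adjusted p = 0.0086) lower. Each of these calls was lost without a single library: ASO10 replicate 3 for MT-CYB (0.10), ASO10 replicate 1 or 3 or NCA replicate 1 for MT-ATP6 (0.082 to 0.18), and ASO10 replicate 2 for MT-ND4L (0.071) and MT-ND3 (0.12). In IMR32 no mitochondrial member passed with ASO1, where 12 of the 13 had negative values from -0.17 to -0.04, and MT-ND1 alone passed with ASO2, 0.23 (adjusted p = 0.014). That call was lost without ASO2 replicate 3 or 4 or NCA replicate 4 (0.051 to 0.055).

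Both genomes were compared within each library, where a scaling factor cancels. The median change of the 13 mitochondrial members minus that of the 79 nuclear members was -0.14 in IMR32 ASO1 and -0.04 in IMR32 ASO2. It was -0.01 and -0.07 in NGP (ASO2, ASO10) and 0.01 and -0.01 in SK-N-BE(2)c (ASO2, ASO10). Several signs rest on 1 library. The value turned to 0.03 in IMR32 ASO2 without ASO2 replicate 1, to 0.01 and 0.02 in NGP ASO2 without ASO2 replicate 3 and without NCA replicate 3, and to 0.04 in SK-N-BE(2)c ASO10 without ASO10 replicate 2. In NGP ASO10 it was -0.04 without NCA replicate 3. In SK-N-BE(2)c ASO2 both genomes were about equally higher in the values as deposited: against the mean of the controls, the library medians were 0.17 to 0.20 for the mitochondrial and 0.13 to 0.19 for the nuclear members. In IMR32 the same difference per library was -0.26, -0.06, -0.16 and -0.08 with ASO1 and -0.11, 0.10, 0.05 and -0.05 with NCA, so the groups overlapped. Replicate 1 had the highest nuclear median of each IMR32 group, 0.17 with ASO1, 0.24 with ASO2 and 0.12 with NCA. Leaving out ASO1 replicate 1 moved the IMR32 ASO1 value to -0.10. The ratio of summed mitochondrial to nuclear counts was 7.95 ± 0.59 with NCA, 7.24 ± 0.52 with ASO1 and 7.90 ± 1.13 with ASO2 in IMR32 (SD, n = 4 each). In NGP it was 3.28 ± 0.15 with NCA, 3.14 ± 0.19 with ASO2 and 3.08 ± 0.04 with ASO10, and in SK-N-BE(2)c 5.60 ± 0.19, 5.58 ± 0.10 and 5.63 ± 0.34 (SD, n = 3 each). All these differences between groups were within the spread of the libraries except NGP ASO10, whose 3 libraries (3.03 to 3.12) lay below the 3 controls (3.14 to 3.43). Annotated nuclear copies of mitochondrial sequence were counted at 5.72% to 5.88% of the mitochondrial mRNA in the NGP groups and 1.00% to 1.21% in the others.

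**Figure D5:**
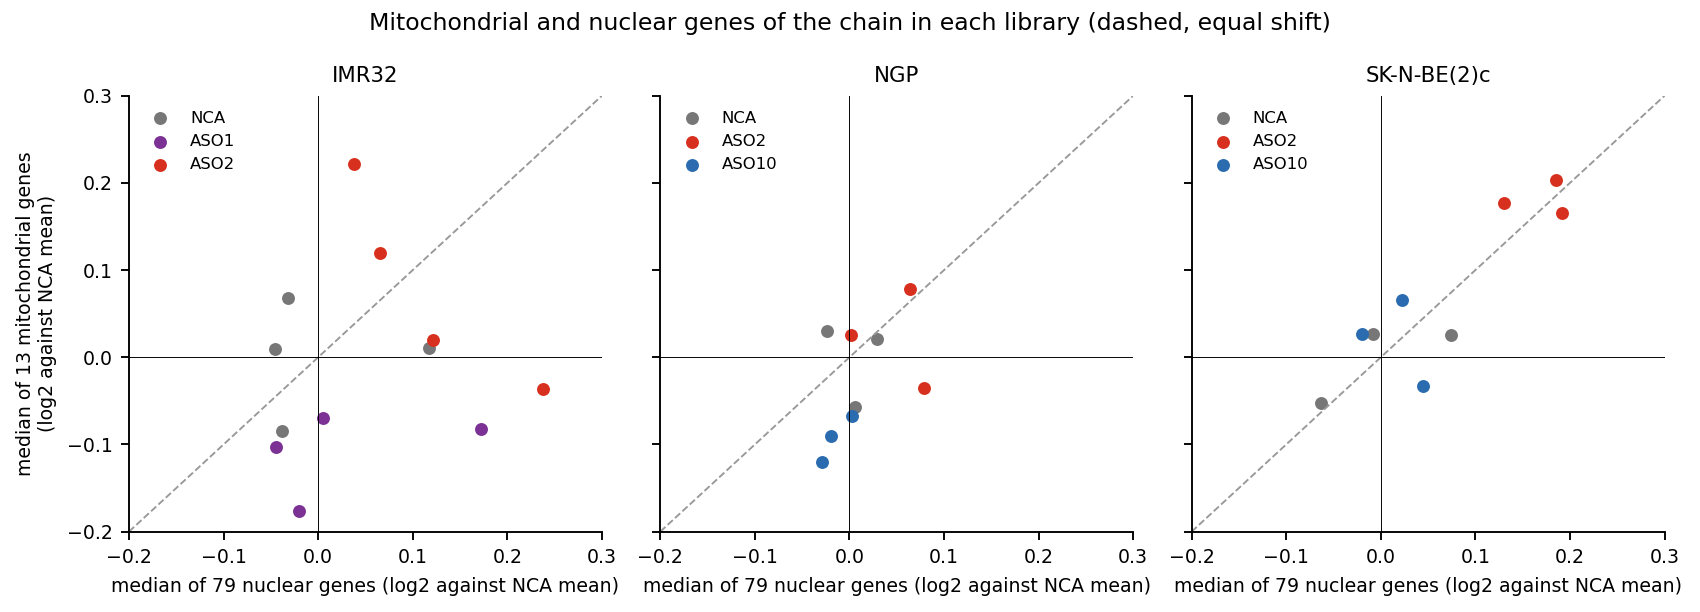
Median log2 change of the 79 nuclear members (x axis) and the 13 mitochondrial members (y axis) in each library, relative to the mean of its line's NCA libraries, with the dashed line marking equal shifts. The 3 SK-N-BE(2)c ASO2 libraries sit near the line at 0.13 to 0.19 on the x axis, away from the other libraries of that line, while IMR32 libraries scatter across it.

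The ASOs were compared with each other without the controls. In NGP 48 of 92 members were called between ASO2 and ASO10 (35 higher with ASO2, 13 lower) beside 58.6% of all genes tested (30.6% higher, 28% lower). The count in SK-N-BE(2)c was 61 (51 higher, 10 lower) beside 65.4% (34.6% higher, 30.8% lower). With libraries brought to equal totals the splits were 21 higher and 20 lower in NGP, and 33 higher and 19 lower in SK-N-BE(2)c. The largest differences were NDUFV2 (1.76 and 1.88 in NGP and SK-N-BE(2)c) and NDUFC2 (0.92 in SK-N-BE(2)c) on the higher side, and NDUFA7 and NDUFV3 on the lower side. Of the 13 mitochondrial members 10 in SK-N-BE(2)c and 8 in NGP were higher with ASO2 than with ASO10, and none was lower, as deposited. With the same total SK-N-BE(2)c had 5 higher and 1 lower. Those 8 in NGP ranged from 0.10 for MT-CO1 to 0.27 for MT-ATP8. With the same total, all of these NGP calls but MT-CO2 and MT-CO3 were lost (adjusted p 0.052 to 0.40). In IMR32 17 members were called between ASO1 and ASO2 (3 higher with ASO1, 14 lower) beside 21.9% of all genes (9.17% higher, 12.8% lower). They included 8 mitochondrial members lower with ASO1, led by MT-ND1 (-0.38, adjusted p = 5.1e-04), and NDUFA12 (-0.26, adjusted p = 0.018), which was lost without ASO1 replicate 2 or 3 or ASO2 replicate 1 (0.066 to 0.076). NDUFB6 (0.47, adjusted p = 0.0065) and NDUFA13 (0.49, adjusted p = 0.045) were higher with ASO1, the latter lost with DESeq2 (0.081) and without ASO1 replicate 2, 3 or 4 or ASO2 replicate 2, 3 or 4 (0.052 to 0.16). This count was 8 (3 higher, 5 lower) with the same total (2 of the 8 mitochondrial calls), 27 without ASO1 replicate 1, 7, 4 and 11 without ASO1 replicates 2, 3 and 4, and 10 without ASO2 replicate 4.

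Whether an ASO changed the chain differently in SK-N-BE(2)c than in NGP was tested by interaction. For ASO2 19 members differed (18 with the higher change in SK-N-BE(2)c, 1 with the lower), beside 19.9% of all genes tested (10.5% higher, 9.37% lower). The leading differences were NDUFA13 and MT-ND6 (0.56, SE 0.11, adjusted p = 4.7e-04) upward and ATP5MC1 downward. The count was 12 without NGP ASO2 replicate 2 and 11 with the same total. Among the mitochondrial members MT-ND2 (0.36, adjusted p = 1.8e-04), MT-ATP6 (0.31, adjusted p = 4.7e-04), MT-ND4 (0.25, adjusted p = 0.005) and MT-CO1 (0.18, adjusted p = 0.033) also differed, the last lost with the same total (0.18) and without any 1 of 7 libraries (0.05 to 0.091). For ASO10 13 members differed (8 higher, 5 lower), beside 19.2% (9.35% higher, 9.86% lower), led by NDUFA13 and COX8A upward and NDUFC2 and NDUFB6 (-0.44, SE 0.14, adjusted p = 0.025) downward. The NDUFB6 difference was lost with TMM factors (0.067) and without NGP ASO10 replicate 1, NGP NCA replicate 1 or 2, or replicate 3 of ASO10 or NCA in SK-N-BE(2)c (0.051 to 0.08). That count was 8 without NGP NCA replicate 2 and 20 without NGP NCA replicate 3, and TMM factors gave 28 (26 higher, 2 lower). The changes of NDUFA10 were close in both lines, with a difference of -0.01 for ASO2 (95% interval -0.21 to 0.19) and 0.03 for ASO10 (-0.17 to 0.23).

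Genes that build, transcribe or feed the chain were counted from lists outside the members. Their counts stand beside these shares of all genes tested: 30.6% higher and 28.1% lower in NGP ASO2, 26.8% and 27.6% in NGP ASO10, 33.6% and 33.4% in SK-N-BE(2)c ASO2, and 27.8% and 31.1% in SK-N-BE(2)c ASO10. No list was tested against them, and the lists were chosen with earlier results of these data known. Of 16 complex I assembly factors, 7 were lower and 1 higher in NGP ASO2, 6 and 2 in NGP ASO10, 11 and 2 in SK-N-BE(2)c ASO2, and 8 and 2 in SK-N-BE(2)c ASO10. Their medians were -0.22, -0.17, -0.27 and -0.21, while the nuclear subunits of complex I had -0.02, -0.02, 0.18 and 0.00. After rescaling to the same total they were 11 lower and 1 higher, 6 and 2, 13 and 0, and 8 and 2, in the same order. TIMMDC1 (-0.72) and NDUFAF4 (0.66) led in NGP ASO2, COA1 in both ASO10 groups (-0.71 in NGP, -0.74 in SK-N-BE(2)c) and NUBPL (-0.80), which delivers iron-sulphur clusters, in SK-N-BE(2)c ASO2. Of 34 assembly factors of complexes II to V tested, 8 rose and 13 fell in NGP ASO2, 5 and 12 in NGP ASO10, 7 and 11 in SK-N-BE(2)c ASO2, and 3 and 17 in SK-N-BE(2)c ASO10. Rescaled, these counts were 7 and 13, 5 and 12, 4 and 14, and 3 and 19. COA5 fell with ASO2 in both lines (log2 fold change -1.34 in NGP, -1.07 in SK-N-BE(2)c), and COX20 in SK-N-BE(2)c (-1.23). TMEM70, an assembly factor of ATP synthase, rose by 1.03 in NGP ASO2, 1.53 in NGP ASO10, 0.90 in SK-N-BE(2)c ASO2 and 0.69 in SK-N-BE(2)c ASO10, and by 0.56 and 0.57 in IMR32 with ASO1 and ASO2.

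The 30 genes tested for mitochondrial DNA replication, transcription and RNA stability had no direction that led in every contrast: 14 higher and 7 lower in NGP ASO2, 7 and 12 in NGP ASO10, 15 and 8 in SK-N-BE(2)c ASO2, and 5 and 15 in SK-N-BE(2)c ASO10. Rescaled, they were 10 and 10, 7 and 12, 13 and 10, and 5 and 15. POLG, the mitochondrial DNA polymerase, rose in each of these contrasts, by 0.88, 0.71, 1.19 and 0.83. GRSF1, an RNA-binding protein of mitochondrial RNA granules, fell with ASO2 in SK-N-BE(2)c (-0.96). The 78 mitochondrial ribosomal proteins tested counted 17 higher and 20 lower in NGP ASO2, 10 and 21 in NGP ASO10, 38 and 15 in SK-N-BE(2)c ASO2 (median 0.17), and 14 and 16 in SK-N-BE(2)c ASO10. With the same total the splits were 14 and 26, 8 and 23, 23 and 21 (median 0.03), and 11 and 21. Their strongest falls were MRPS9 (-0.91) in NGP ASO2, MRPL13 (-0.95) in NGP ASO10 and PTCD3 (-1.02) in SK-N-BE(2)c ASO10. MRPS5 (0.93) led the rises in SK-N-BE(2)c ASO2. Among ubiquinone and electron-carrier genes, COQ8B fell with ASO2 (-1.33 in NGP, -1.29 in SK-N-BE(2)c), and GPD2, the mitochondrial glycerol phosphate dehydrogenase, fell with ASO10 (-1.78 in NGP, -1.56 in SK-N-BE(2)c). PDSS2, an enzyme of the ubiquinone side chain, fell with ASO10 too (-1.51 in NGP, -1.34 in SK-N-BE(2)c).

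Among regulators of nuclear respiratory genes, ESRRG fell with ASO10 (-1.79 in NGP, -2.11 in SK-N-BE(2)c). PPARGC1B (-1.38) and YY1 (-1.26) fell with ASO2 in SK-N-BE(2)c. PRKAA2 fell in NGP (-1.66 with ASO2, -1.32 with ASO10). The list counted 8 higher and 7 lower of 18 tested in NGP ASO2, and 6 and 9 of 17 in SK-N-BE(2)c ASO2, or 7 and 8, and 5 and 9, with the same total. In the mitochondrial stress list GDF15, a secreted stress marker, rose by 1.67 in IMR32 ASO2, 1.34 and 1.97 in NGP with ASO2 and ASO10, and 1.61 in SK-N-BE(2)c ASO10, but fell in SK-N-BE(2)c ASO2 (-0.49). ATF5, a transcription factor of the mitochondrial unfolded protein response, rose by 1.18 in NGP ASO2, 1.07 in NGP ASO10 and 1.28 in SK-N-BE(2)c ASO2. TRIB3 rose by 1.60 in SK-N-BE(2)c ASO10. Other members of that list fell: of 17 tested 6 rose and 4 fell in NGP ASO2, 7 and 5 in NGP ASO10, 7 and 6 in SK-N-BE(2)c ASO2, and 7 and 4 in SK-N-BE(2)c ASO10, or 5 and 5, 7 and 5, 6 and 8, and 7 and 6 with the same total. Of 17 glycolytic genes, 7 rose and 5 fell in NGP ASO2 (5 and 7 with the same total), 2 and 10 in NGP ASO10, 10 and 4 in SK-N-BE(2)c ASO2 (5 and 6 with the same total), 4 and 3 in SK-N-BE(2)c ASO10, and 9 and 1 in IMR32 ASO2, where all genes had 17.6% higher and 14.8% lower. ENO1 fell with ASO2 (-0.70 in NGP, -0.70 in SK-N-BE(2)c), and ALDOC rose by 1.67 with ASO10 in NGP. The values named in these lists are log2 fold changes and each passed limma's adjusted p of 0.05.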

How the data were processed

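RNA from 30 libraries of 3 neuroblastoma lines was sequenced with stranded kits (the labels name 2 and assign no library to either). Per the submitters' processing notes, FastQC 0.11.8, cutadapt 1.18, STAR 2.6.0, HTSeq 0.6.1 and DESeq2 1.42.0 were used, with builds hg19 and GRCh37. The authors deposited a normalized count per Ensembl gene, a signal that equals whole reads divided by 1 size factor per library. IMR32 was scaled on its own, NGP and SK-N-BE(2)c together. Dividing by the smallest step gave whole reads for 100% of values within 0.01, although an automatic check of the step could not be made for SK-N-BE(2)c NCA replicate 2. The IMR32 table has 174 entries without a gene identifier (0.172% of values), left out. Symbols came from GENCODE release 29, promoters from RefSeq.

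Because the values are not raw counts, limma 3.58.1 (R 4.3.3, trend) was run on log2(value + 1) for genes with a mean of at least 10 (17309, 14440 and 13556 genes, and 12637 in the joint interaction fit). Each line's 3 groups entered 1 fit, with Benjamini-Hochberg adjustment over all genes. The code was tested on simulated data. Alternatives were edgeR 4.0.16 and DESeq2 1.42.0 on recovered reads, other scalings, filters, pseudocounts, a replicate block and leaving out each library.

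Named genes are all mitochondrial members, nuclear members called in 1 direction in all 6 contrasts with NCA, the 3 largest called rises and falls per contrast with NCA, the 2 largest per contrast between ASOs and per interaction, fixed core subunits and isoform pairs, and the 2 largest changes per outside list. Values of a named gene are given in further contrasts. Members and lists were chosen with earlier results of these data known. A listed cell type marker is not reported here.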

Additional observations from a re-analysis of the deposited data

Results flagged for a closer look

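In IMR32, where groups have 4 libraries, 102 groups of values for the named members were checked for a library far from the other 3, and 8 had one, while chance gives about 1 in 20. In ASO1, replicate 1 was highest for ATP5F1B (4702, others 3779 to 3833), COX5A (1414, others 1140 to 1159) and SDHB (337, others 248 to 262), and lowest for NDUFB6 (214, others 234 to 237). In NCA, NDUFS1 was highest in replicate 1 (2337, others 2019 to 2038) and NDUFA2 lowest in replicate 2 (189, others 239 to 247). In ASO2, CYC1 was lowest in replicate 3 (553, others 638 to 645) and NDUFV1 lowest in replicate 4 (1738, others 1854 to 1873).

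Some members changed differently in SK-N-BE(2)c than in NGP by limma's interaction test. For ASO2 the differences (SK-N-BE(2)c minus NGP, log2) were 0.62 for NDUFA13 (adjusted p = 0.0033), 0.56 for MT-ND6 (0.00047) and -0.33 for ATP5MC1 (0.0024). For ASO10 they were 0.57 for NDUFA13 (0.0064), 0.32 for COX8A (0.010), -0.79 for NDUFC2 (0.012) and -0.44 for NDUFB6 (0.025). The NDUFC2 and NDUFB6 differences were each lost without single libraries. COX8A, NDUFA13 and NDUFC2 share part of their exon length with other annotated genes, as given above.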

How the results depend on the processing

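Only named genes already called in the main limma fit were followed singly. Of their 3706 alternative values 3299 kept direction and call, with a missing adjusted p counted as kept, 407 lost the call and none changed sign. Members that were not called were not followed, so their changes of sign are not counted here. The cause of the shifts below was not tested. Members called without a filter on low values numbered 4 in IMR32 ASO1, 12 in the ASO2 interaction and 6 in the ASO10 interaction. Rescaling to the same total gave 8 in IMR32 ASO1 against ASO2 and 11 in the ASO2 interaction, and to the same total outside the mitochondrial genome 11 and 11. The ASO10 interaction had 28 with TMM factors and 20 with edgeR. Splits also moved with the tool: NGP ASO10 had 10 higher and 13 lower with edgeR and 10 and 10 with DESeq2, and SK-N-BE(2)c ASO10 22 and 11 and 23 and 10.

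Same-numbered replicates deviated together only in part. In each of the 3 pairs of IMR32 groups 2 of 4 correlations were above 0.1 (highest 0.26 to 0.33), as were 2 of 3 between NGP ASO10 and NCA, and none in the other 5 pairs. In no pair of groups were all above 0.1 or every library closest to its own number, so the main fit did not pair replicates. That rule can miss a partial pairing. Between IMR32 ASO1 and NCA 6 of 8 libraries were closest to their own number, and 4 of 8 in each further IMR32 pair. The main IMR32 counts and p-values leave out any such shared effect, and its part was not tested. With a replicate block the IMR32 counts were 26 (ASO1), 42 (ASO2) and 36 (ASO1 against ASO2), and all other counts stayed within 1.5 times.

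Leaving out 1 library at a time gave 4 to 10 members in IMR32 ASO1, 10 to 27 in ASO2 and 4 to 27 between them. NGP gave 26 to 43 (ASO2), 16 to 28 (ASO10) and 37 to 45 (ASO2 against ASO10), and SK-N-BE(2)c 54 to 59, 24 to 31 and 57 to 59. The interactions gave 12 to 25 (ASO2) and 8 to 20 (ASO10). The mitochondrial minus nuclear median ranged from -0.19 to -0.10 and -0.098 to 0.029 in IMR32 (ASO1, ASO2), -0.061 to 0.019 and -0.11 to -0.037 in NGP (ASO2, ASO10), and 0.011 to 0.046 and -0.031 to 0.040 in SK-N-BE(2)c (ASO2, ASO10).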
